A study of Mus musculus with 6 samples.

Results

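Wild-type mouse 2-cell embryos were set against wild-type zygotes in S4U-seq, an RNA-seq method that marks newly made RNA. The comparison takes in 4 of the 6 samples of the series, 2 labelled as wild-type zygotes and 2 as wild-type 2-cell embryos. The other 2, zygotes that lack Pabpn1l, enter only the scaling factors. Each sample pooled 50 embryos from mated females given hCG. Embryos were kept for 2 h in KSOM medium with 200 μM 4-thiouridine (S4U), a uridine analogue that cells build into RNA. Iodoacetamide then alkylated the S4U, so that it is read as C where the genome has T. One protocol text, which speaks of zygotes collected 26 h after hCG, is attached to all samples. For the 2-cell embryos the sources used here give no collection time of their own, and they name neither the strain nor the age of the females. Ribosomal RNA was depleted from total RNA and no poly(A) selection is described, so RNAs with short tails, without tails or still unspliced can also be read.

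The question was how a change in the amount of an RNA lies beside a change in its newly made fraction. A mouse oocyte stores RNA and transcribes little when fully grown. After fertilisation the stored maternal RNA is broken down, while the embryo's own genome becomes active, weakly in the zygote and then strongly at the 2-cell stage. Total reads measure what has accumulated and not yet decayed. The T-to-C share is the percentage of a gene's reads that carry a T-to-C change. It follows what was made during the labelling, above a background of sequencing errors and of differences from the reference genome. No unlabelled sample was analysed here, so that background was not measured.

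Each group had 1 column of reads and 1 of T-to-C reads per gene, with no column for a single sample. No spread between pools of embryos could be measured, no test across samples was possible, and no p-value is given. Intervals are exact 95% intervals and cover counting error only. Of 23259 gene names, 10885 had at least 20 reads over both columns and were compared in total reads. A gene was called higher or lower in total reads where its scaled ratio was at least 4-fold and the interval excluded a ratio of 1. A further rule covered the share: 6909 genes with at least 20 reads in each column were compared, and a gene was called where the share differed at least 2-fold and the 2 intervals did not overlap. Reads are shares of a library, so an embryo-wide change in RNA content is not seen, and fewer molecules per embryo cannot be told from fewer embryos contributing them.

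The zygote column held 3001472 reads, of which 90945 carried a T-to-C change, a share of 3.03% (3.01 to 3.05%). The 2-cell column held 4020444 reads and 182592 T-to-C reads, a share of 4.54% (4.52 to 4.56%). The stage labels were set against marker genes. Of 9 compared markers of the 2-cell embryo, 7 were called higher and none lower, with 787 summed reads in zygotes and 12607 in 2-cell embryos. Arg2 and Dux, which were not called, had fewer reads in 2-cell embryos: 578 and 239 for Arg2, 150 and 84 for Dux. Tcstv1 and Tcstv3 had 0 reads in both columns. Markers of the oocyte and zygote went from 40749 to 14818 summed reads, with 4 of 10 called lower and none higher. Among all 10885 genes compared, 19.4% were called higher and 14.4% lower. Markers of cumulus and granulosa cells, the somatic cells around the egg, summed to 131 and 70 reads. Amh, Inha, Inhba, Ptx3, Tnfaip6 and Cyp11a1 were at 0 in both columns, while Cyp19a1, the aromatase of granulosa cells, had 80 reads in zygotes and 0 in 2-cell embryos. Blood markers summed to 51 and 47 reads. Sperm markers summed to 447 and 1751 reads, almost all from Odf2, which had 436 and 1747. The part of these other cell types in the results was not tested.

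Total reads differed widely between the stages. Of the 10885 genes compared, 2116 (19.4%) were called higher in 2-cell embryos and 1562 (14.4%) lower, and the median gene had a log2 ratio of 0.08. Most of the genes called higher were near absent in zygotes: 1695 had under 20 zygote reads and 419 had none. Of the genes called lower, 829 had under 20 reads in 2-cell embryos and 174 had none. With 7 reads counted as 1 molecule, to allow for copies made by PCR, 1367 of the higher calls and 1148 of the lower calls held.

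The T-to-C share was called in fewer genes, and more often higher than lower. Of the 6909 genes compared, 708 (10.2%) had a share called higher in 2-cell embryos and 218 (3.16%) had one called lower. Many of these calls depend on how many reads stand for 1 molecule. With 7 reads per molecule, 156 of the higher and 5 of the lower calls held. The typical gene had much the same share at both stages, with a median of 1.94% in zygotes and 1.88% in 2-cell embryos and a median log2 ratio of shares of 0. The difference lay in the upper tail. A share of at least 10% was found in 375 genes (5.43%) in zygotes and in 919 genes (13.3%) in 2-cell embryos. Among 3443 genes with at least 100 reads in both columns, 147 in zygotes and 489 in 2-cell embryos had a share of at least 8%.

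**Figure D1:**
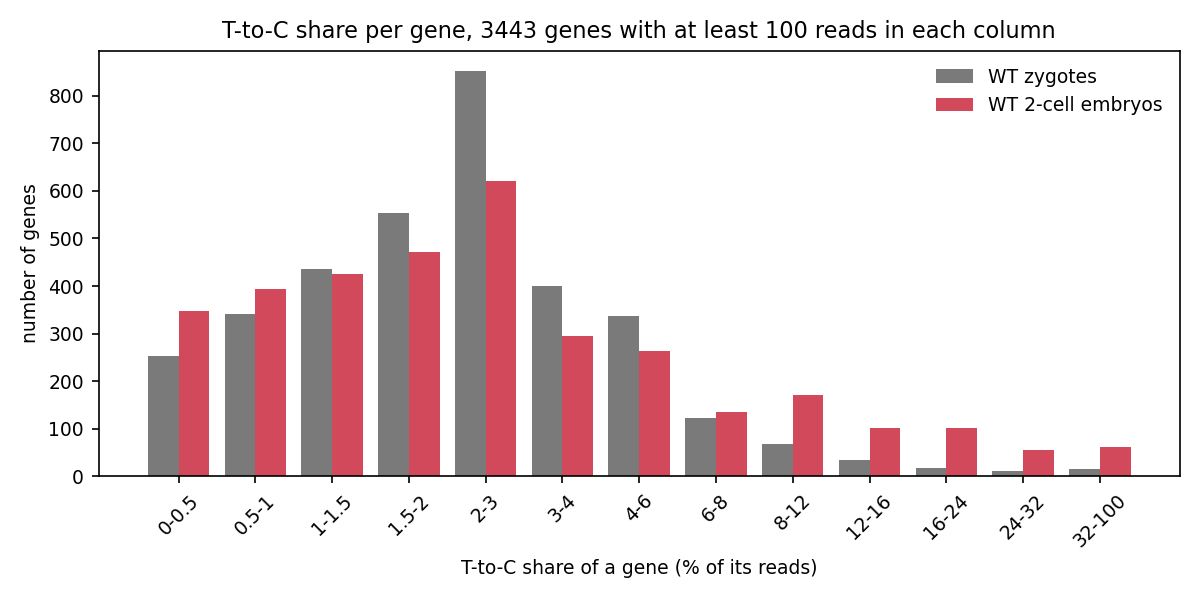
Number of genes (vertical axis) by T-to-C share in percent (horizontal axis) in WT zygotes and WT 2-cell embryos, for genes with at least 100 reads in both columns, in bins of unequal width. The bulk of both distributions lies at the same low shares, and 489 genes in 2-cell embryos against 147 in zygotes reach a share of 8% or more.

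The change in amount and the change in share were only weakly correlated across genes. Across the 6909 genes, the log2 ratio of total reads and the log2 ratio of shares had a Pearson r of -0.08 and a Spearman rho of -0.07, as a description over genes that share the same 2 pools. A gene's reads enter both ratios, and 1546 genes in zygotes and 1578 in 2-cell embryos had no T-to-C read. Part of the correlation is therefore built in, and it cannot show whether amount and label are related. Of the 421 genes that were called higher in total reads and could be compared in share, 19 (4.51%) had a higher share. Among the 5755 genes within 4-fold in total reads, 599 (10.4%) did. Among the 733 genes called lower in total reads, 90 (12.3%) did. Depth differed between these sets, since genes that were higher had a median of only 42 zygote reads. Among genes with at least 100 reads in each column, the 3 shares were 12%, 13.7% and 15.2%, over 75, 3131 and 237 genes. At 7 reads per molecule, 5, 132 and 19 of the calls held.

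**Figure D2:**
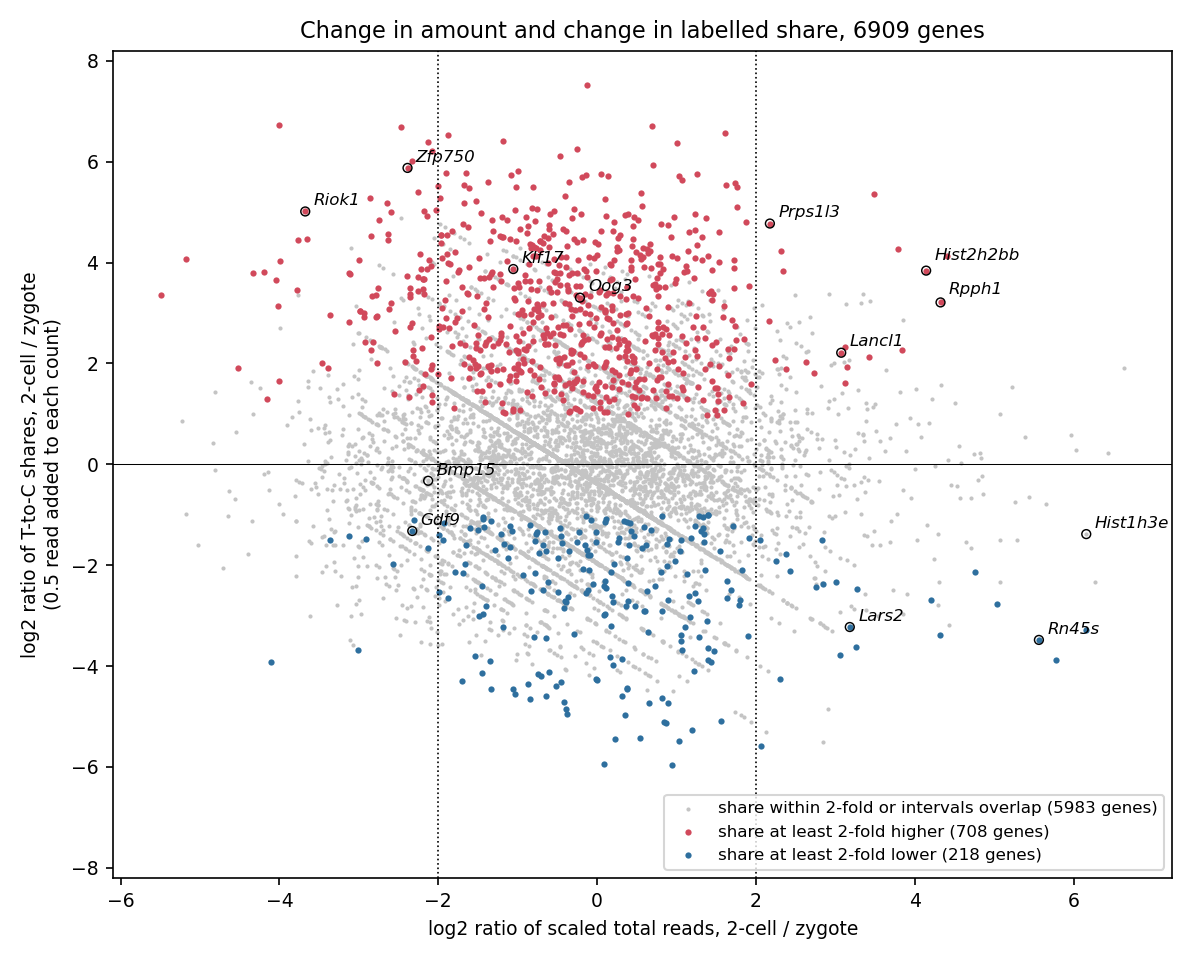
Each point is 1 of the 6909 genes with at least 20 reads in each column, with the log2 ratio of total reads (2-cell over zygote) on the horizontal axis and the log2 ratio of T-to-C shares on the vertical axis, coloured by the call in share, with dotted lines at 4-fold in total reads. The 599 genes with a higher share and total reads within 4-fold form the largest coloured set, and only 19 genes were higher in both.

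The weight of each class of calls in the label follows from how the classes were drawn and is given as a description only. The 599 genes with a higher share and total reads within 4-fold made up 12.7% of zygote reads and 12.01% of 2-cell reads. Their part of all T-to-C reads was 9.39% in zygotes and 34.4% in 2-cell embryos, and their summed share went from 2.24% to 13.0%. Reads of these genes without a T-to-C change had a median ratio of 0.719, against 0.878 for all their reads. Genes called lower in total reads and not higher in share, 643 in number, held 18.3% of T-to-C reads in zygotes and 1.54% in 2-cell embryos. The 19 genes higher in both measures held 0.099% and 7.62%.

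Zbed3, which encodes a zinc-finger protein of the subcortical maternal complex of the egg (GRCm38 chromosome 13), gave the most T-to-C reads among genes within 4-fold in total reads and higher in share. It had 49780 reads in zygotes, 667 of them T-to-C, and 52240 reads at the 2-cell stage, 5356 of them T-to-C. The ratio of total reads was 0.807 (0.797 to 0.817), while the share went from 1.34% to 10.3% (9.99 to 10.5%). Klf17, a Krüppel-like transcription factor of oocytes and early embryos (chromosome 4), had 11123 reads with 215 T-to-C in zygotes and 6963 reads with 1974 T-to-C in 2-cell embryos. Its total ratio was 0.481 and its share went from 1.93% to 28.3% (27.3 to 29.4%). Its reads without a T-to-C change stood at a ratio of 0.352.

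Mdm4, an inhibitor of p53 (chromosome 1), had 7076 and 15570 reads, a ratio of 1.69 (1.64 to 1.74), and its share went from 1.91% to 7.11%. Dusp7, a phosphatase that switches off ERK kinases (chromosome 9), had 4089 and 9461 reads and went from 1.79% to 11.8%. Oog3, an oocyte gene of the oogenesin family (chromosome 4), had 4288 and 4802 reads, a ratio of 0.861, and went from 2.29% to 22.7% (21.5 to 23.9%). Hist2h2aa1, a replication-dependent histone H2A gene (chromosome 3), had 4564 and 7727 reads and went from 1.07% to 12.4%. All 6 share calls held with 7 reads per molecule, and the 6 ratios of total reads lay between 0.481 and 1.78.

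The 19 genes higher in both measures were led by Rpph1, the RNA subunit of RNase P, which trims the ends of transfer RNA precursors. It lies on chromosome 14 and is made by RNA polymerase III. It had 533 reads with 32 T-to-C in zygotes and 13897 reads with 7825 T-to-C in 2-cell embryos. The ratio of total reads was 20.04 (18.4 to 21.9), and the share went from 6.0% to 56.3% (55.5 to 57.1%). A second RNA with a high share was Rprl3, another RNase P RNA-like gene, with no zygote read and 2093 reads in 2-cell embryos, 51.6% of them T-to-C. Its reads cannot be separated with certainty from those of near-identical copies.

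Among the protein-coding genes higher in both, Prps1l3, a copy of the enzyme that makes the ribose precursor of nucleotides (chromosome 12), had 429 reads with 9 T-to-C in zygotes and 2523 reads with 1525 T-to-C in 2-cell embryos. Its ratio was 4.52 (4.08 to 5.02) and its share went from 2.10% to 60.4% (58.5 to 62.4%). Lancl1, a glutathione-binding protein (chromosome 1), went from 149 to 1636 reads, with shares of 7.38% and 35.5%. Hist2h2bb, a histone H2B gene (chromosome 3), went from 122 to 2813 reads, with shares of 3.28% and 52.4%. These share calls held with 7 reads per molecule. Those of Hist1h4c (2.52% to 8.11%), the ubiquitin-conjugating enzyme Ube2o (0.905% to 4.59%), the hypoxia-inducible factor Hif3a (2.74% to 10.7%) and the chaperone regulator Bag5 (1.85% to 13.0%) did not. Their total reads were higher by 8.70, 6.22, 6.63 and 14.4-fold.

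Genes called higher in total reads had 2-cell shares near those of other genes. Over the 2078 of them with at least 20 reads in 2-cell embryos the median share was 1.44%, against 1.80% for genes within 4-fold and 1.53% for genes called lower. Of the 402 genes higher in total reads without a higher share, a set drawn in part by its share, the median share was 1.58% in zygotes and 2.01% in 2-cell embryos. Many genes were too thin in zygotes to be compared in share. Of those called higher with under 20 zygote reads, 1657 had at least 20 reads in 2-cell embryos, and their median share was 1.12%. No T-to-C read at all was found in 699 (42.2%) of them, against 26.0% of genes within 4-fold and 39.3% of those called lower. Depth differed between these sets, with medians of 70, 143 and 61 reads in 2-cell embryos. A share of at least 10% was found in 207 (12.5%) of the genes thin in zygotes. For comparison, 13.0% of genes within 4-fold in total reads and 17.7% of those called lower had such a share.

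Hist1h3e, a histone H3 gene (chromosome 13), went from 96 to 8962 reads, a ratio of 71.8 (58.7 to 88.7), and its share was 2.08% in zygotes and 0.982% (0.788 to 1.21%) in 2-cell embryos. Gcap14 (chromosome 14) went from 803 to 7455 reads, with shares of 2.37% and 3.42%. H2afx, the histone variant phosphorylated at DNA breaks (chromosome 9), went from 1355 to 7297 reads, a ratio of 4.14, with shares of 1.25% and 0.452%, a lower call that did not hold with 7 reads per molecule.

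The gene that gained the most reads in number was Rn45s, the precursor of ribosomal RNA. It had 3078 reads in zygotes and 189290 at the 2-cell stage. This ratio was 47.3 (45.6 to 49.0), while the share went from 35.6% to 3.19%. Its T-to-C reads numbered 1097 and 6036 before scaling, while reads without a change were higher by 71.1-fold after scaling. The background was not measured, so how many of these T-to-C reads come from label is not known. Ribosomal RNA had been depleted, so these are the reads that depletion left, and how much it left at each stage was not measured. Lars2, listed as a mitochondrial leucyl-tRNA synthetase gene (chromosome 9), went from 1414 to 16693 reads while its share went from 55.7% to 5.94%. Whether the high zygote shares of Rn45s and Lars2 are label or background was not tested. These 2 lower shares held with 7 reads per molecule, as did those of Fdft1, Gm8994 and Papolb, the 5 genes in all for which a lower share held. Of the further genes with a lower share, Fbxo34 (3.26% to 1.35%), Gdf9 (1.96% to 0.762%) and Surf4 (2.34% to 1.09%) did not hold.

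A set of 90 genes was lower in total reads but higher in share. They took fewer of the reads, and a larger part of those reads was T-to-C. The median share of the set went from 1.83% to 20.6%, beside a median ratio of total reads of 0.169. Both medians follow from how the set was drawn and are a description only. Riok1, a kinase of small ribosomal subunit maturation (chromosome 13), went from 918 to 93 reads, and 54 of those 93 reads were T-to-C, a share of 58.1% (47.4 to 68.2%) against 1.74% in zygotes. Zfp750, a zinc-finger gene listed among early 2-cell genes (chromosome 11), went from 814 to 202 reads, with shares of 0.614% and 39.6%. Umodl1 (chromosome 17) went from 1386 to 394 reads, with shares of 2.16% and 28.2%.

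Elmod2 (chromosome 8) went from 4238 to 721 reads, with shares of 2.05% and 15.7%. Fam46b, a member of a family of poly(A) polymerases (chromosome 4), went from 5643 to 1540 reads, with shares of 1.08% and 14.4%. Ldhb, a lactate dehydrogenase subunit (chromosome 6), went from 2229 to 578 reads, with shares of 1.57% and 11.1%. All 6 share calls held with 7 reads per molecule. With RLE factors in place of TMM, Fam46b and Umodl1 were no longer past 4-fold in total reads.

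The 643 genes lower in total reads without a higher share had a median share of 2.23% in zygotes and 1.06% in 2-cell embryos, beside a median ratio of total reads of 0.173. These values also depend on how the set was drawn. Bmp15, an oocyte growth factor on the X chromosome, went from 26444 to 7874 reads, a ratio of 0.229 (0.223 to 0.235), and its shares were 1.92% and 1.52%. Its partner Gdf9 (chromosome 11) went from 7594 to 1968 reads, a ratio of 0.199. Zfp57, which keeps methylation at imprinted loci (chromosome 17), went from 17628 to 3155 reads, a ratio of 0.138, with shares of 2.05% and 1.17%. Fam46c (chromosome 3) went from 8604 to 1364 reads, with shares of 5.20% and 3.23%. Usp46, a deubiquitinase (chromosome 5), went from 8051 to 2251 reads, with shares of 2.12% and 1.38%. Hjurp, the chaperone that loads the centromeric histone (chromosome 1), stood apart in its T-to-C share from the other genes named in this paragraph. It went from 6231 to 1295 reads and its share was 13.2% at both stages. Whether a share that is high at both stages is label or background was not tested. Under RLE factors Bmp15 and Usp46 were no longer past 4-fold.

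**Figure D3:**
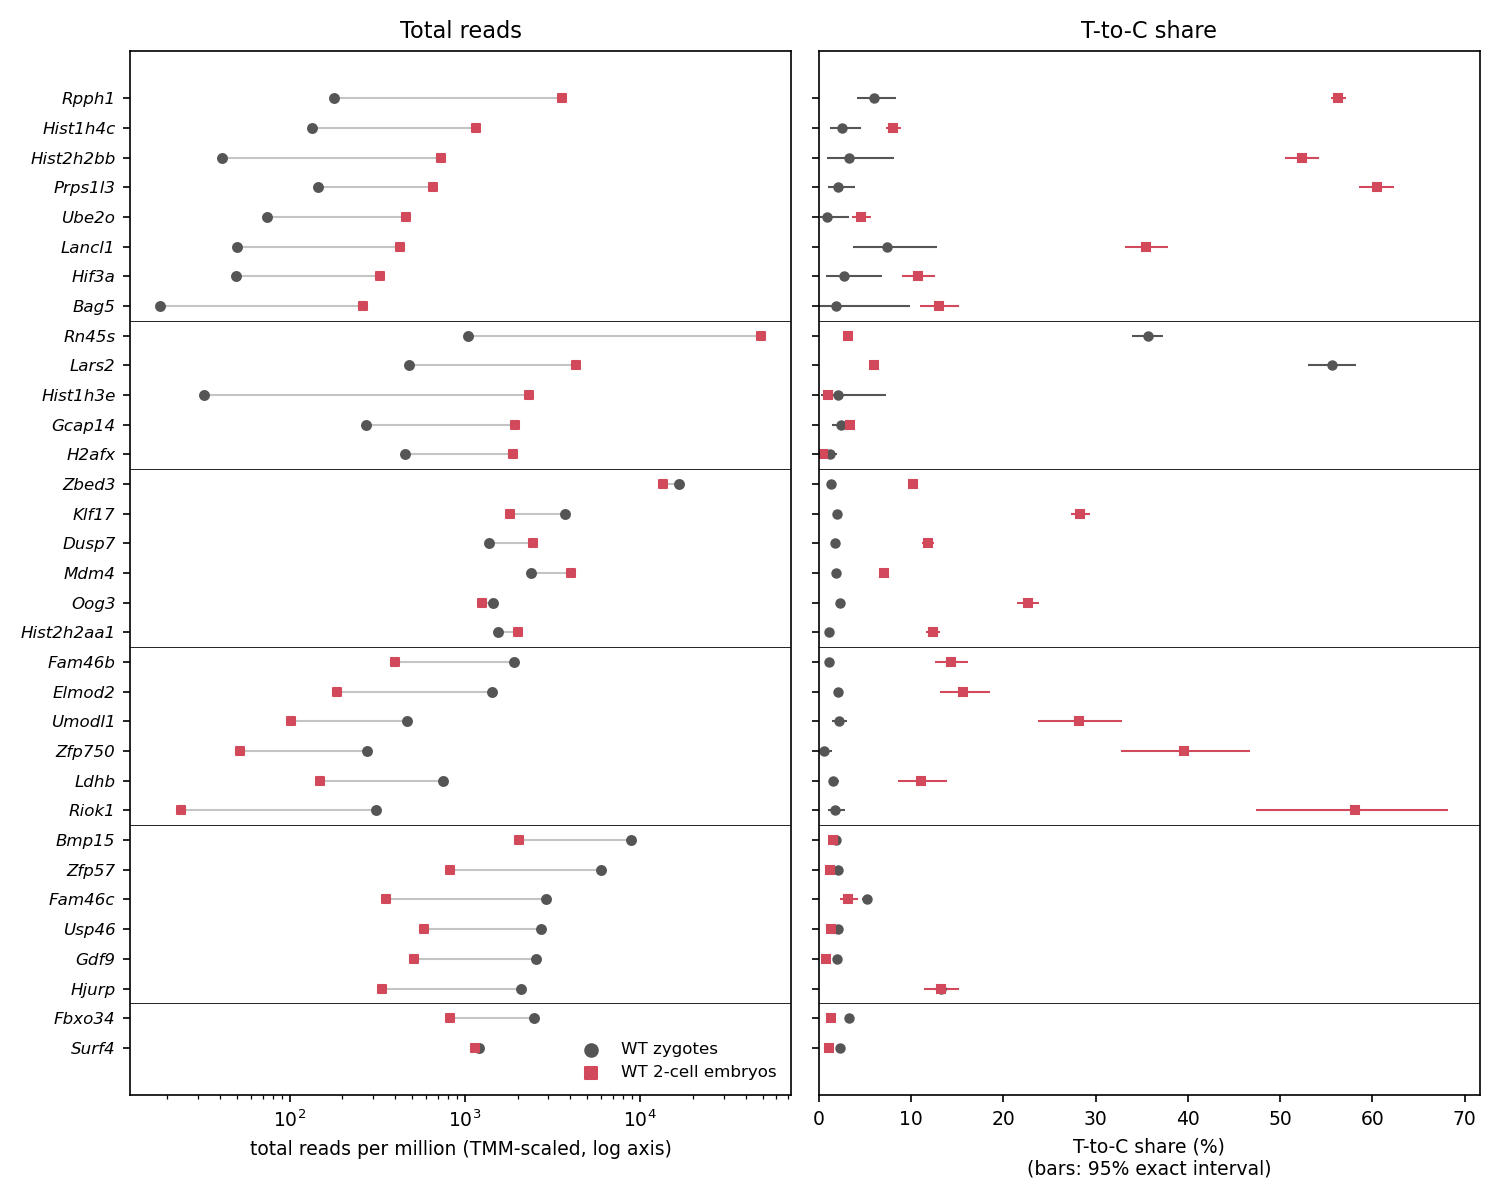
Scaled reads as RPM (left panel, log axis) and T-to-C share in percent with its exact 95% counting interval (right panel) in WT zygotes and WT 2-cell embryos for the genes chosen by rule and reported here, with lines between the classes of calls. Rpph1, Prps1l3 and Hist2h2bb exceed a share of 50% in 2-cell embryos, Riok1 does so on 93 reads, and Rn45s and Lars2 run the other way.

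Gene lists were then followed by function. Each list is described by its counts and its median, beside the median log2 ratio of 0.08 over all genes compared, with 19.4% of genes called higher and 14.4% lower in total reads, and 10.2% called higher and 3.16% lower in share.

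Early 2-cell genes, which are switched on briefly at genome activation, had 22 of 28 compared members higher and 1 lower, with a median log2 ratio of 6.11, or 5.35 with genes at 0 set to their bound. Their label was uneven. Zfp352 went from 7 to 3757 reads with a 2-cell share of 1.12%, and Tdpoz5 from 1 to 3670 reads with 1.61%, the same counts as listed for Gm10697. Ubtfl1 went from 0 to 1002 reads, at least 257-fold higher, with 1.30%. In contrast Tdpoz4 went from 0 to 2678 reads, at least 686-fold higher, with 10.8%, and Tdpoz1 from 0 to 1225 reads with 12.1%. Dub1a, a deubiquitinase, went from 5 to 2940 reads with 7.52%. Dux, the homeodomain factor that activates many of these genes, had 150 reads in zygotes and 84 in 2-cell embryos, and its share went from 2.00% to 28.6% (19.2 to 39.5%). Sp110 likewise had 298 and 198 reads, with shares of 1.68% and 47.0%. The Dux call did not hold with 7 reads per molecule, whereas that of Sp110 did. Many of these genes are near-identical copies whose reads may have been split between them.

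Transcription factors linked to genome activation had 11 of 28 compared members higher and 4 lower, with a median log2 ratio of 1.26. Their summed reads went the other way, with a ratio of 0.762 (0.751 to 0.774). The Obox homeobox genes split in 2 directions. Obox6 went from 0 to 799 reads, at least 205-fold higher, with a share of 7.01%, and Obox3 from 0 to 383 reads. Obox2 went from 4669 to 299 reads and Obox1 from 2470 to 539 reads, both called lower, while Obox5 had 4416 and 2054 reads, within 4-fold. Yy1, a ubiquitous zinc-finger factor, went from 25 to 1113 reads, a ratio of 34.2 (23.1 to 53.1), with a 2-cell share of 11.4%. Klf4 went from 31 to 357 reads, with shares of 0 and 14.0%, a difference that was not called. Yap1, the Hippo pathway coactivator, had 5579 and 11996 reads with shares of 2.17% and 1.78%. The summed share of the list went from 2.48% to 8.23%, and was 2.82% without Klf17.

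Pluripotency and lineage factors had 10 of 20 compared members higher and none lower, with a median log2 ratio of 2.12. Sox2 went from 8 to 250 reads and Mycn from 1 to 234, with 2-cell shares of 1.20% and 2.14%. Sall4, a zinc-finger factor, had 1169 and 1126 reads, within 4-fold, while its share went from 2.57% to 15.5%. Pou5f1 had 511 and 865 reads, and its share was called lower, 6.65% against 3.01%. Lin28a had 1286 and 1668 reads, with shares of 1.63% and 4.56%.

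Replication-dependent histone genes, whose messages lack poly(A) tails, had 31 of 55 compared members higher and 1 lower, with a median log2 ratio of 2.41. Of the 31 compared in share, 15 were higher and 1 lower, and 6 of the higher calls held with 7 reads per molecule. The summed share went from 1.20% to 8.68%, or to 6.76% without Hist2h2bb. Members differed in how amount and label went together. Hist1h2ac went from 96 to 458 reads and from 2.08% to 71.6% (67.2 to 75.7%). Hist1h2aa had 147 and 175 reads and went from 0 to 61.7%. Hist1h4d went from 65 to 954 reads and reached 31.0%. Hist1h4i went from 323 to 3775 reads, with shares of 0.619% and 0.715%, and Hist1h1a had 6619 and 7737 reads with 1.57% and 1.09%. Hist1h3f, the 1 member called lower, went from 5681 to 1746 reads. Histone genes of 1 class are close copies, so reads may be assigned to the wrong member.

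Short and abundant non-coding RNAs had 11 of 14 compared members higher and none lower, with a median log2 ratio of 4.35, or 3.61 with genes at 0 set to their bound. The summed share of the list went from 29.2% to 7.24%, which mainly follows Rn45s. That gene held 3078 of the 3889 zygote reads and 189290 of the 207751 2-cell reads of the list. The share of Rpph1 went the other way. Beside Rn45s, Rpph1 and Rprl3, Rmrp, the RNA of RNase MRP, went from 36 to 487 reads with a 2-cell share of 0.411%. Terc, the telomerase RNA, went from 94 to 550 reads with 0.545%. Rpph1 and Rmrp, which share protein subunits in their enzymes, were both higher, with 2-cell shares of 56.3% and 0.411%.

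**Figure D4:**
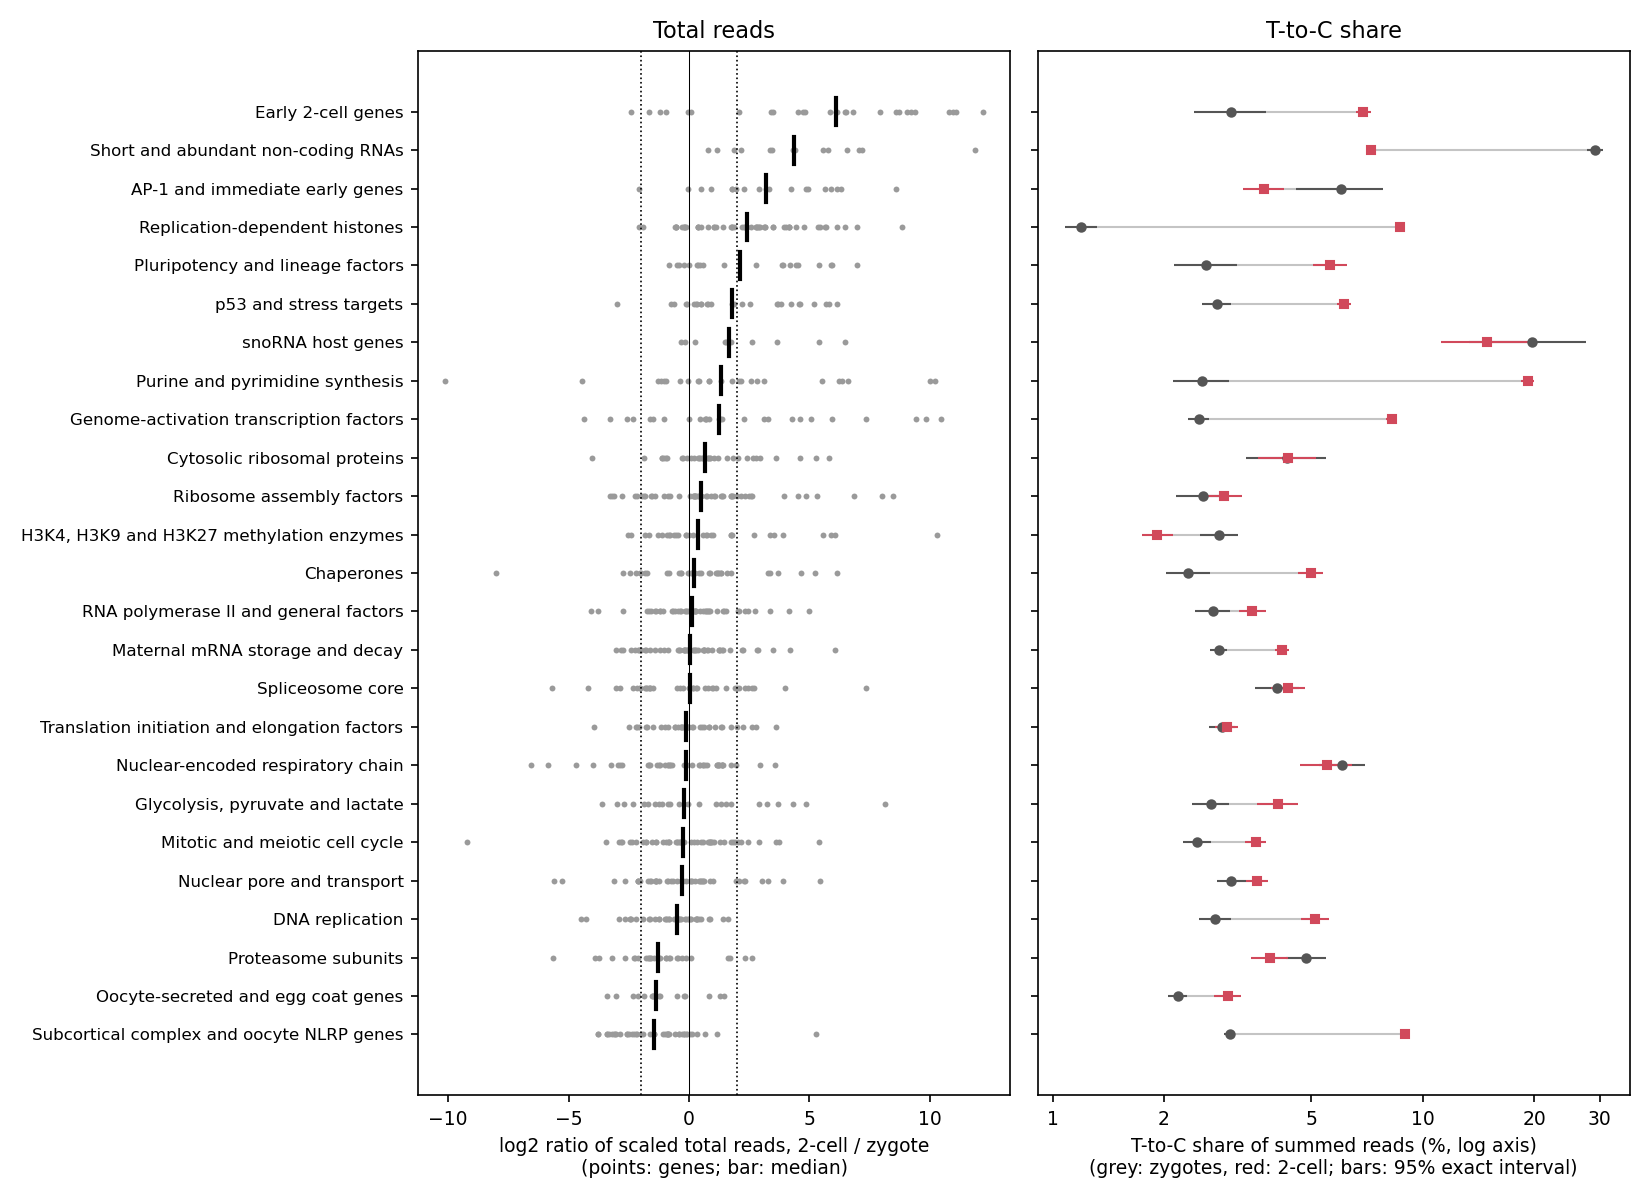
Log2 ratio of scaled total reads for each compared gene of each list (left panel, points, with a bar at the list's median and dotted lines at 4-fold), and the T-to-C share of the list's summed reads in percent (right panel, log axis) in WT zygotes (grey) and WT 2-cell embryos (red) with exact 95% counting intervals. Medians run from 6.11 for early 2-cell genes to -1.44 for subcortical and NLRP genes. The summed share of histones is higher in 2-cell embryos. That of non-coding RNAs is lower, and most reads of that list are from Rn45s.

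AP-1 and immediate early genes had 12 of 19 compared members higher and 1 lower, with a median log2 ratio of 3.20, and none of 9 was called in share. Jund went from 97 to 1269 reads with a 2-cell share of 4.65%, Junb from 42 to 418 with 12%, and Jun from 11 to 461 with 0.868%. Dusp1, a phosphatase of stress kinases, was the member called lower, with 209 and 65 reads. Targets of p53 and stress had 12 of 27 higher and 1 lower, with a median of 1.77. Sesn2 went from 16 to 1096 reads, Btg1 from 36 to 898, and Cdkn1a, the inhibitor of cyclin-dependent kinases, from 32 to 245, with a 2-cell share of 10.6%. Txnip, the thioredoxin inhibitor, went from 3839 to 637 reads, with shares of 3.39% and 3.61%.

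Enzymes of purine and pyrimidine synthesis had 11 of 25 compared members higher and 2 lower, with a median log2 ratio of 1.33. Prps1 went from 1 to 1912 reads and Prps2 from 0 to 672, at least 172-fold higher, with 2-cell shares of 2.82% and 10.3%. Impdh1 went from 1 to 150 reads and Ppat, the first enzyme of purine synthesis, from 1 to 141. Xdh, which breaks purines down, went from 485 reads to 0. The summed 2-cell share of the list was 19.2%, and 3.93% without Prps1l3.

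Maternal lists had more genes lower than higher. Genes of the subcortical complex and the oocyte NLRP family had 17 of 43 compared members lower and 1 higher, with a median log2 ratio of -1.44. Nlrp5, a core member of the complex, went from 974 to 248 reads with shares of 0.924% and 2.82%, and Padi6 from 1657 to 472 with 11.6% and 14.2%. Ooep went from 2384 to 226 reads while its share went from 0.965% to 10.6%. Tle6 went from 172 to 45 reads, and its share was 54.1% in zygotes, against 24.4% in 2-cell embryos. Zar1, a translational repressor of stored messages counted in this list, went from 575 to 71 reads, with shares of 24.9% and 33.8%. The summed share of the list went from 3.01% to 8.95%; without Zbed3 it went from 4.25% to 6.92%.

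Oocyte-secreted and egg coat genes had 4 of 16 compared members lower and none higher, with a median log2 ratio of -1.36. The share was called higher in 3 of the 14 members compared, against 10.2% of all genes, and 2 of the 3 held with 7 reads per molecule. Astl, the protease that hardens the egg coat after fertilisation, had 516 and 606 reads, and its share went from 1.94% to 21.0% (17.8 to 24.4%). Oosp1 had 1296 and 1210 reads, with shares of 0.540% and 8.93%. These are the 2 calls that held.

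Genes of maternal RNA storage and decay were mixed, with 7 of 50 compared members higher and 8 lower and a median log2 ratio of 0.04. Btg4 and Cnot6l, an adaptor and a subunit of the CCR4-NOT deadenylase, were called in neither measure, with 3984 and 4491 reads at 2.33% and 2.05%, and 3520 and 5108 reads at 2.02% and 2.11%. Dcp2, the decapping enzyme, had 1537 and 2610 reads and went from 2.02% to 16.3%. Cnot8 had 507 and 1112 reads and went from 1.18% to 16.6%. Both of these share calls held with 7 reads per molecule. Pan3 went from 713 to 4251 reads with shares of 0.701% and 1.39%.

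In the cell cycle list, 7 of 50 compared members were higher and 8 lower. Ccne1, cyclin E1, went from 22 to 1220 reads with a 2-cell share of 3.11%. Ccna2, cyclin A2, had 434 and 1544 reads, a ratio of 2.73, and its share went from 2.53% to 25.2% (23.0 to 27.4%). Ccnb1, cyclin B1, went from 2544 to 601 reads with shares of 1.22% and 2.16%. Aurkc, a meiotic kinase, went from 254 reads to 0, a ratio of at most 0.00908. DNA replication genes had none of 42 higher and 8 lower, with a median log2 ratio of -0.50. Pold3, a subunit of DNA polymerase delta, had 2658 and 1805 reads, and its share went from 2.37% to 10.1%.

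Ribosomal protein genes had 9 of 34 compared members higher and 1 lower, with a median log2 ratio of 0.67 and no share call among 14. Few were compared because their reads are thin: 29 of 79 had no zygote read. Ribosome assembly factors had 13 of 52 higher and 6 lower, and Nop2, a nucleolar methyltransferase, went from 6 to 239 reads. Translation factors had 4 of 38 higher and 5 lower, the spliceosome 8 of 39 in each direction, and RNA polymerase II with its general factors 8 of 50 higher and 3 lower. There Ssrp1, a histone chaperone of transcription, had 123 and 424 reads, and its share went from 4.07% to 46.9%. Proteasome subunits had 2 of 30 higher and 8 lower, with a median of -1.28, while their summed reads had a ratio of 1.16 (1.12 to 1.20). Psme4, an activator of the proteasome, went from 419 to 2697 reads and Psmd12 from 306 to 29.

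Chaperones had 6 of 38 higher and 5 lower. Hsf1, the heat-shock transcription factor, had 238 and 725 reads, and its share went from 2.10% to 29.9%, while Hspa1a, a heat-shock gene, went from 6 to 315 reads with a 2-cell share of 0.635%. Enzymes of glycolysis, pyruvate and lactate had 6 of 25 higher and 4 lower. Ldha and Ldhb, subunits of 1 enzyme, went in opposite directions: Ldha from 10 to 273 reads, with a 2-cell share of 0.366%, and Ldhb as given above. Slc2a3, a glucose transporter, went from 0 to 156 reads. Respiratory chain genes had 2 of 42 higher and 8 lower. Nuclear pore and transport genes had 7 of 44 higher and 8 lower. Methylation enzymes of H3K4, H3K9 and H3K27 had 8 of 32 higher and 2 lower. Among them Suv39h1 went from 8 to 734 reads and Suz12 from 1964 to 8622, within 4-fold. snoRNA host genes had 4 of 10 higher and none lower.

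The classes also differed in properties the calls did not use. The median gene called higher in total reads spanned 15.8 kb, against 27.2 kb for genes within 4-fold and 24.1 kb for those called lower. Genes with under 20 zygote reads and a 2-cell share of at least 10% spanned 12.5 kb. Promoter windows from RefSeq (GRCm38.p6, 250 bases before to 50 after a start) had a median GC content of 60.7% for genes called higher, 61.3% within 4-fold and 57.7% for genes called lower. The 90 genes lower in total reads and higher in share had 56.5%, and TATAAA lay in 16.3% of their windows, against 7.17% over all genes compared in both measures and 13.6% over all windows of the table. These are descriptions, with no test.

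Motifs of early embryonic homeodomain factors were searched in the same windows on both strands. TAATCC, the core bound by OBOX and OTX2, lay in 7.34% of windows of genes called higher, 5.43% within 4-fold, 6.23% called lower and 7.06% of all 32851 windows. None of the 14 windows of genes higher in both measures held it. The site bound by DUX, searched as TGATT and ATCA with any 2 bases between them, lay in 0.255%, 0.0806% and 0.262% of windows and in 0.207% of the whole table. It was found for 66 genes, of which 14 were compared in total reads, with 5 higher and 3 lower. Over all genes compared, 19.4% were higher and 14.4% lower. The 5 higher genes were Psap and the near-identical copies Zscan4b, Zscan4c, Zscan4d and Zscan4f, so they do not count as separate cases. Of 6 compared in share, 3 were higher, against 10.2% of all genes, and none of the 3 held with 7 reads per molecule. A match says only that the letters are there.

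The stretches below, read 5′ to 3′ on the gene's strand, are shown because their genes gained reads or label at the 2-cell stage and hold the DUX motif, in capitals as found on either strand. These genes were picked after their values were seen. Not shown are Zscan4b, Zscan4c and Psap, which also hold the motif and were higher in total reads. Their 2-cell shares were 0, 0.629% and 1.91%. Also not shown are the genes with the motif that were called lower in total reads. These were Cyp19a1 (80 to 0 reads), Trim30a (71 to 0) and 4932411G14Rik (32 to 7). Zscan4d (chr7:11166223-11166313, minus strand) went from 38 to 526 reads with a 2-cell share of 8.17%. Zscan4f (chr7:11397784-11397874, plus strand) went from 0 to 334 reads, at least 85.6-fold higher, with 18.3%. They are near-identical copies, so reads may have been split between them.
Zscan4d: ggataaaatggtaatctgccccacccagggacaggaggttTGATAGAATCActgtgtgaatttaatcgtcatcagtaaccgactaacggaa
Zscan4f: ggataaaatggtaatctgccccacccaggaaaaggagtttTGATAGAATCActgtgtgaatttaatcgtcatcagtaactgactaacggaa

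The 3 genes with this motif and a higher share all stayed within 4-fold in total reads, and none of these share calls held with 7 reads per molecule. Bivm (chr1:44119790-44119880, plus strand) had 92 reads, none T-to-C, in zygotes and 282 reads with 47 T-to-C in 2-cell embryos. 4732416N19Rik (chr6:148212094-148212184, plus strand) had 150 reads with 1 T-to-C and 332 with 23. Ppp2r1b (chr9:50856796-50856886, plus strand), a scaffold subunit of phosphatase PP2A, had 106 reads with none and 176 with 25.
Bivm: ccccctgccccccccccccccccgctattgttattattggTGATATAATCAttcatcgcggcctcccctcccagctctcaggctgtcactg
4732416N19Rik: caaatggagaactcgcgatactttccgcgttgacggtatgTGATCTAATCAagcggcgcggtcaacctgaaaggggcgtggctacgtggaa
Ppp2r1b: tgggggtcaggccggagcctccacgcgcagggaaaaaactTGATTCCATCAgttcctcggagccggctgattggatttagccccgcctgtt

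Prr5l, a partner of the TORC2 kinase complex, has a TAATCC window and was lower in total reads and higher in share, with 992 reads and 18 T-to-C in zygotes and 148 reads and 19 T-to-C in 2-cell embryos. The stretch shown lies at chr2:101839083-101839168 on the minus strand, with TAATCC in capitals. It was taken as the gene of its class with such a window and the most T-to-C reads in 2-cell embryos.
Prr5l: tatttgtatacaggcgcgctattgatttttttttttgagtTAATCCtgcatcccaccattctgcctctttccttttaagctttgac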

How the data were processed

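Read counts per gene and T-to-C read counts per gene were deposited by the authors, 1 pair of columns for each group. The sources used here name no aligner or counter and do not say how the 2 samples of a group entered a column. The build is mm10, per the submitters' processing notes. No value was normalized. Of 30493 rows, 47 with a date for a name were dropped. Each of 23259 names was represented by its row of highest summed reads, since 6131 rows repeat another row of their gene and 928 genes have distinct rows. The deposited classes of genes were not used. Symbols were matched to RefSeq (GRCm38.p6), 23013 as a symbol or synonym.

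Columns were scaled by TMM factors (edgeR 4.0.16) of 0.988 for zygotes and 0.959 for 2-cell embryos over all 3 groups. Ratios use an exact conditional interval and shares a Clopper-Pearson interval, at 95%. log2 values add 0.5 reads. A gene at 0 was given a floor of 3 reads per column, hence "at least". PCR reads without molecular identifiers are not independent molecules. An alternative therefore counts 7 reads as 1 molecule, a number set from earlier results of these data. Alternatives covered scaling, thresholds, filters and the row kept. The members, lists and rules were chosen with earlier results of these data known.

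Named genes are, in each class of calls, the 6 (8 for genes higher in both measures) with the most reads or T-to-C reads, without predicted genes, pseudogenes and genes known only by a clone name. Other list members were picked after their values were seen. Of 1145 list entries, 1110 matched a name in the table. A gene that the rule names is not reported here.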

Additional observations from a re-analysis of the deposited data

How the results depend on the processing

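Counting 7 reads as 1 molecule left 1367 genes higher in total reads, 156 higher and 5 lower in share, and 5, 132 and 19 genes with a higher share among those higher, within 4-fold and lower in total reads. A 2-fold threshold gave 3420 genes higher and 3073 lower, and an 8-fold threshold 1296 and 714. With RLE factors the median log2 ratio was 0.36 in place of 0.08, 66.0% of the calls in total reads were higher in place of 57.5%, and 32 genes in place of 19 were higher in both measures. Translation factors had a summed log2 ratio of 0.20 under RLE against -0.08, and the cell cycle list 0.10 against -0.18, so neither has a fixed direction. The whole-column share of zygotes was 3.05% without the 10 most abundant genes, 2.90% over all deposited rows and 2.996% without the non-coding RNAs. That of 2-cell embryos was 4.64%, 4.29% and 4.39%. Of the 34 genes named by rule, 8 lost their share call with 7 reads per molecule and 4 their total call under RLE. The other alternatives kept the counts of calls over all genes within 1.5 times. No paired analysis was possible because each group has 1 column, and for the same reason no sample could be left out. With at least 50 reads in each column, 605 of the 708 higher share calls were left.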
